A study of Mus musculus with 3 samples.

Results

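The genes of the SR and hnRNP splicing factors were examined in 3 libraries of RNA from apoptotic bodies (ABs), with the reads of each gene split by the kind of transcript that they were assigned to. Members were all protein-coding genes of GENCODE M21 whose symbol starts with Srsf or Hnrnp, and all of their transcripts that the mRNA table lists. This gave 238 transcripts of 30 genes, 10 of them SR genes and 20 hnRNP genes, out of 56651 transcripts and 12408 protein-coding genes. The annotation holds 31 such genes, and Srsf12 was not analysed here. The ABs were the membrane-bound fragments shed by bone marrow macrophages (BMM-ABs), preosteoclasts (pOC-ABs) and mature osteoclasts (mOC-ABs) of 11-week-old male C57BL/6 mice. Per the labels, the cells of all 3 stages were first grown into BMMs in 50 ng/ml M-CSF for 72 h, after which pOCs received 100 ng/ml RANKL with 30 ng/ml M-CSF for 24 h and mOCs the same for 72 h or more, while BMMs received no RANKL. All 3 were then treated with 500 μM alendronate for 12 h to induce apoptosis. The study's methods name staurosporine as the inducer and a longer RANKL treatment for mOCs. There was 1 library per stage, and whether it came from 1 culture or from pooled mice was not given in the sources used here, so no difference between stages can be set against a spread between replicates and no test was made. Where 3 values per gene or transcript follow each other, they are those of BMMs, pOCs and mOCs in this order, and where 3 comparisons do, of pOC-ABs with BMM-ABs, mOC-ABs with BMM-ABs and mOC-ABs with pOC-ABs. The intervals given with values are 95% intervals of the read counts and cover counting error only, since there was 1 library per stage. The reads carry no molecular identifiers, so copies of 1 molecule cannot be told apart. The intervals do not hold that error either.

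SR proteins bind RNA through RNA recognition motifs and recruit the spliceosome through a domain rich in arginine and serine, and they mostly favour the use of nearby splice sites. The hnRNPs coat newly made RNA in the nucleus, and many of them repress splice sites or act in the export, stability and translation of mRNA. Genes of both families are known for regulating themselves by splicing, where an exon with a stop codon (a poison exon) is included or an intron is kept, and the resulting transcript is a target of nonsense-mediated decay (NMD) or stays in the nucleus. GENCODE sorts transcripts by type, and its types take in such transcripts along with others. A retained_intron transcript holds intron sequence relative to coding transcripts of the same gene and has no annotated reading frame, a nonsense_mediated_decay transcript has a reading frame that ends well before a splice junction, and a processed_transcript has no reading frame assigned.

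The sequences that set these types apart are short, and 4 of them are shown because they are the exons, from their first base to the stop codon, in which the reading frame of NMD transcripts described here ends. They were read from the GENCODE M21 transcripts (GRCm38), 5′ to 3′ on the strand of the gene, with the stop codon in capitals. The Srsf3-201 stretch lies at chr17:29039454-29039487 (plus strand) in an exon of 456 bases, the Srsf6-201 stretch at chr2:162932815-162932966 (plus strand) in an exon of 268 bases, the Hnrnpl-213 stretch at chr7:28817335-28817393 (plus strand) in an exon of 70 bases and the Hnrnpll-203 stretch at chr17:80044976-80045022 (minus strand) in an exon of 83 bases. The whole exon lies outside the exons of the gene's protein-coding transcripts in Srsf3, Hnrnpl and Hnrnpll. In Srsf6, 103 of its bases do, and an annotated protein-coding transcript ends at the same stop.
Srsf3-201: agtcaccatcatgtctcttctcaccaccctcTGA
Srsf6-201: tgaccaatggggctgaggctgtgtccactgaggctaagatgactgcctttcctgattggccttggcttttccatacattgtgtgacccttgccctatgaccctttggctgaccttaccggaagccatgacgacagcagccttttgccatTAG
Hnrnpl-213: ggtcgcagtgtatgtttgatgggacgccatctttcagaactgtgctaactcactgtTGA
Hnrnpll-203: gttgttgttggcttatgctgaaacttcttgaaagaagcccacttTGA

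Of the retained introns, 3 are shown because they lie whole in retained_intron transcripts with many reads, and in capitals are the bases GT and AG at the splice sites that those transcripts do not use. The Srsf3-204 intron, of which the first and last 30 bases are given, spans chr17:29038625-29040774 (plus strand, 2150 bases) and contains the exon of Srsf3-201 shown above. The Srsf5-212 intron spans chr12:80947866-80949094 (plus strand, 1229 bases) and is given in the same way. The Hnrnpa2b1-213 intron at chr6:51466223-51466302 (minus strand) is 80 bases long and given whole.
Srsf3-204, start of the intron: GTacttgagagagcaccttttagagaaagg
Srsf3-204, end of the intron: ttagcctaattttactgtttctgcttctAG
Srsf5-212, start of the intron: GTttgttgaaatacagttttgagatatttt
Srsf5-212, end of the intron: ctctccttaacataattgtcttgtgttaAG
Hnrnpa2b1-213: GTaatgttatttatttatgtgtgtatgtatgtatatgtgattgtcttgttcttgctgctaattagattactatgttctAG

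The mRNA table summed to between 7387317 and 9100082 reads per library, and the lncRNA table to between 3634682 and 4478015. Osteoclast markers followed the labels, with the reads of Acp5 (tartrate-resistant acid phosphatase) at 88, 292 and 2157 in BMM-, pOC- and mOC-ABs and those of Ctsk at 180, 171 and 1001. Calcr, another osteoclast marker, was not among the transcripts analysed. Of the macrophage markers, Csf1r had 9870, 2640 and 3902 reads and Adgre1 had 777, 318 and 122, so that both stayed above 0 in the osteoclast stages. The 4 neutrophil, 2 T cell and 2 erythroid markers were not listed either, so no reads can be given for them. The summed B cell, mesenchymal and endothelial markers that were listed stayed between 0 and 4.93 RPM (reads per 1000000 mRNA reads). Mitochondrial transcripts took 5.76% of the mRNA reads in pOC-ABs against 2.90% in BMM-ABs and 2.87% in mOC-ABs, and the part of this in the values below was not tested. In ABs of mixed cultures, a lower share of ABs from a cell type and less RNA of a gene per AB cannot be told apart.

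The 30 genes together took 0.484%, 0.537% and 0.539% of the mRNA reads in BMM-, pOC- and mOC-ABs. As totals over all transcripts of a gene, no member differed by more than 2-fold between any 2 libraries. The limit was a ratio of RPM above 2 or below its inverse. The study used this fold change together with a limit on adjusted p, which was not applied here. Among the 11010 protein-coding genes with at least 20 reads over the 3 libraries, 9.35% were past this limit between pOC-ABs and BMM-ABs, 12.4% between mOC-ABs and BMM-ABs and 9.31% between mOC-ABs and pOC-ABs. Since low counts pass a fold limit more easily, the same was counted over the 7250 genes with at least 500 reads, which hold 29 of the 30 members, and there 5.03%, 6.72% and 3.83% were past it.

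**Figure D1:**
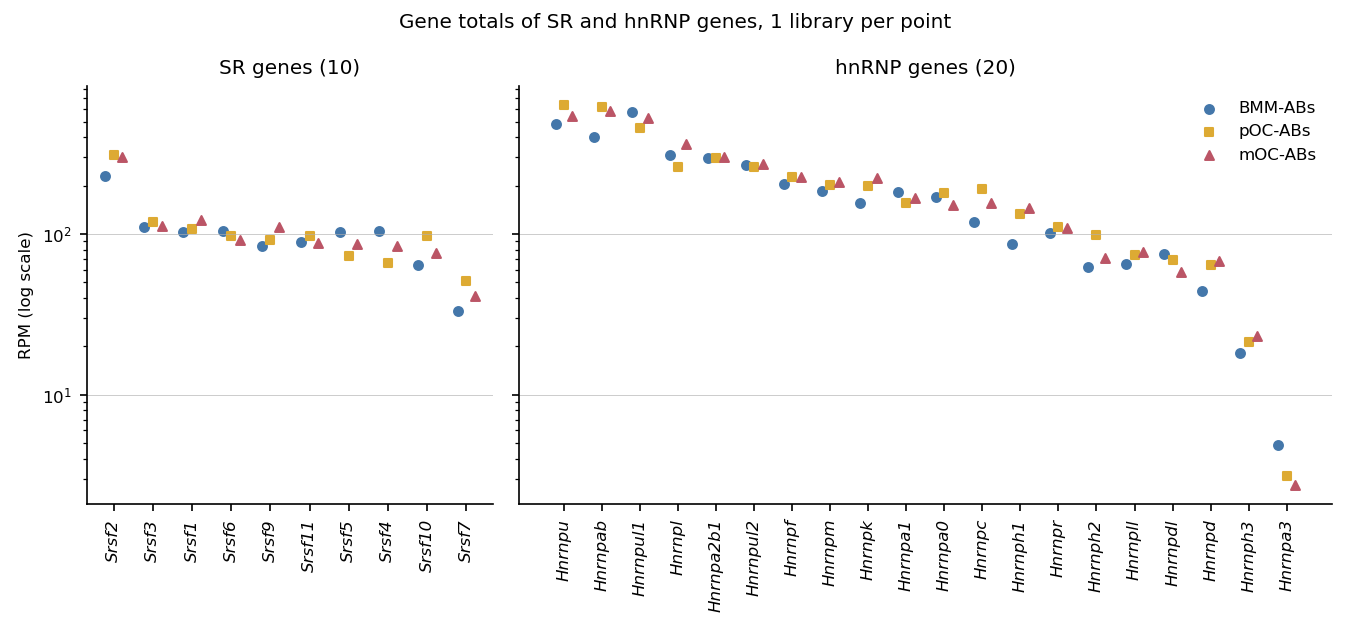
RPM (reads per 1000000 mRNA reads, log axis) of the 10 SR genes and 20 hnRNP genes, ordered by their reads, with 1 point per library (BMM-ABs circles, pOC-ABs squares, mOC-ABs triangles). Srsf2 leads the SR genes at 231 to 309 RPM, Hnrnpu leads the hnRNP genes at 487 to 635, and Hnrnpa3 is lowest at 2.73 to 4.84.

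Among the SR genes, Srsf2 (SC35, a constituent of nuclear speckles) had the most reads, with 2101, 2286 and 2310 in BMM-, pOC- and mOC-ABs. Srsf3, the smallest SR protein, had 1009, 873 and 871 reads. Srsf1 (ASF/SF2), which acts in splice site choice, had 939, 799 and 940 reads. Srsf2 was thus at 231, 309 and 300 RPM, lowest in BMM-ABs, and Srsf3 was nearly level at 111, 118 and 113. Srsf7 was lowest, at 301, 380 and 319 reads, and was listed with 1 of its 8 annotated transcripts. Per length, as FPKM summed over transcripts, Srsf2 (127, 169 and 163) was again first and Srsf9 (72.7, 78.4 and 95.5) stood above Srsf3 (44.5, 44.7 and 47.2).

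Among the hnRNP genes, the most reads were on Hnrnpu (SAF-A), a chromatin-bound scaffold protein, with 4428, 4688 and 4181. Hnrnpab, an RNA-binding relative of Hnrnpd, followed with 3629, 4565 and 4484 reads. Hnrnpul1, a relative of Hnrnpu with a role in the response to DNA damage, had 5234, 3362 and 4061 reads. The order of these 3 differed between libraries, since Hnrnpul1 was first in BMM-ABs and Hnrnpu in pOC-ABs. Per length the order was another, with summed FPKM of 226, 357 and 340 for Hnrnpab, 173, 170 and 179 for Hnrnpa2b1 and 3.71, 3.06 and 3.07 for Hnrnpa3.

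**Figure D2:**
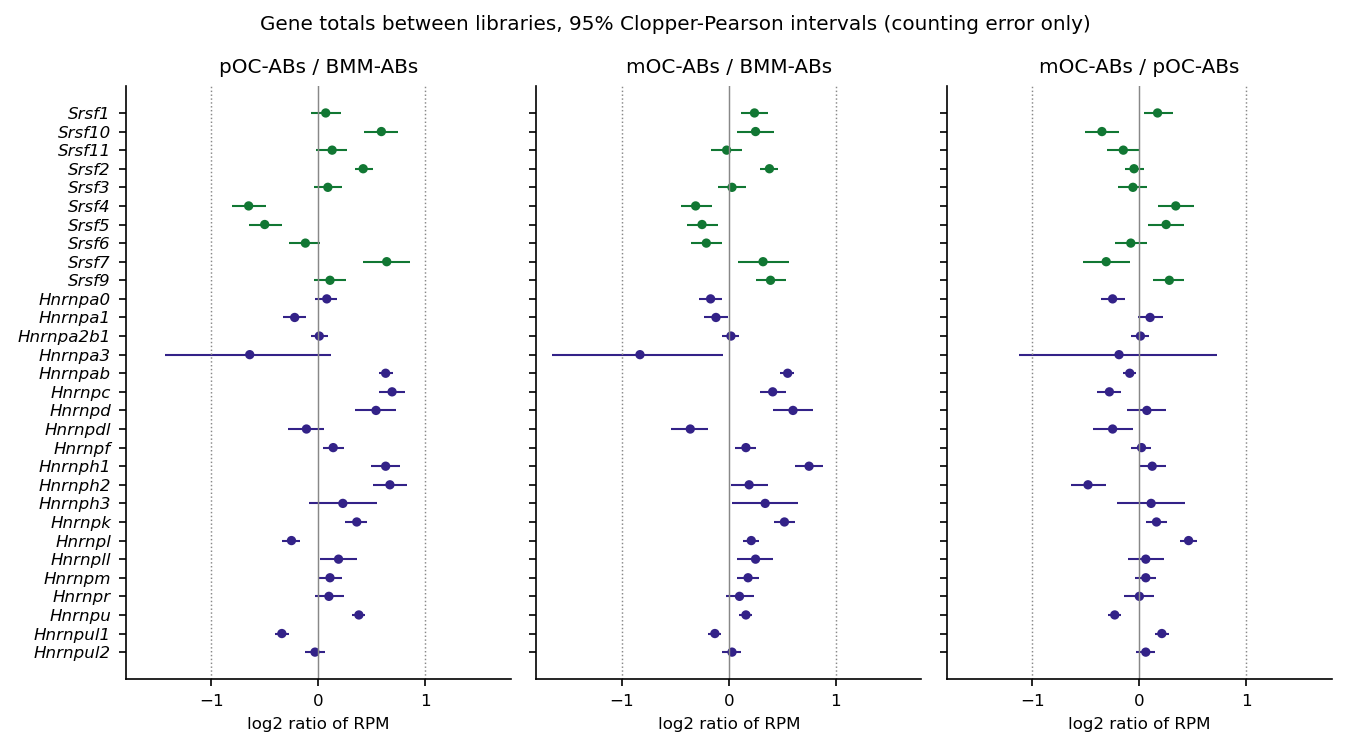
Log2 ratios of RPM of each gene total (x axis) for the 10 SR genes (green) and 20 hnRNP genes (blue) in the 3 comparisons, with 95% Clopper-Pearson intervals that cover counting error only. All 30 points lie between the dotted lines at a ratio of 2 in each panel, and the widest interval is that of Hnrnpa3, which has 88 reads in all.

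The log2 ratios of the SR gene totals ranged from -0.65 to 0.64 between pOC-ABs and BMM-ABs, from -0.31 to 0.39 between mOC-ABs and BMM-ABs and from -0.35 to 0.34 between mOC-ABs and pOC-ABs. Their medians were 0.10, 0.13 and -0.05. Over all genes tested the medians were -0.05, -0.09 and -0.05. For the hnRNP genes the ranges were -0.64 to 0.69, -0.83 to 0.75 and -0.48 to 0.46, with medians of 0.13, 0.17 and 0.04. Both families were thus centred slightly above all genes in the comparisons with BMM-ABs, by less than the range within the family.

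Hnrnpa3 was farthest from 0, with 44, 23 and 21 reads and a log2 ratio of -0.83 (-1.65 to -0.05) for mOC-ABs against BMM-ABs. In the lncRNA table, 2 lncRNAs that overlap Hnrnpa3 had 205, 123 and 293 reads, or 82.3%, 84.2% and 93.3% of the reads of gene and lncRNAs together. That table gives no strand, and the part of this in the ratio was not tested. The members with more reads went in both directions. Srsf4 had 946, 490 and 648 reads, a log2 ratio of -0.65 (interval -0.81 to -0.49) in pOC-ABs against BMM-ABs, and Srsf5 had 933, 537 and 666 reads, a log2 ratio of -0.50 (-0.65 to -0.34). Both were lowest in pOC-ABs. Hnrnpc, which binds uridine tracts in nascent RNA, was at 1070, 1401 and 1201 reads, a log2 ratio of 0.69 (0.57 to 0.81) in the same comparison. Hnrnph1, which binds runs of G, was at 792, 992 and 1128 reads, a log2 ratio of 0.75 (0.62 to 0.88) in mOC-ABs against BMM-ABs. Srsf4 and Srsf5 thus had lower RPM than in BMM-ABs and Hnrnpc and Hnrnph1 higher RPM, each by less than 2-fold.

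Other genes of the splicing machinery and of the NMD pathway were taken from fixed lists. Of 48 other splicing factors tested, 1 was past 2-fold, Elavl1 (HuR, which stabilises mRNAs with AU-rich elements), with 465, 749 and 1001 reads for a log2 ratio of 1.35 in mOC-ABs against BMM-ABs. The medians of that list were -0.03, -0.04 and -0.03. Of 21 NMD factors, among them Upf1, Smg1 and the exon junction proteins Eif4a3 and Magoh, 0 were past 2-fold in any comparison, with medians of 0.02, 0.10 and 0.03. No p is given with these counts, as there is 1 library per stage.

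The reads of each family were then split by transcript type. Retained_intron transcripts took 16.0% (Wilson interval 15.3 to 16.8), 12.5% (11.8 to 13.3) and 15.3% (14.6 to 16.1) of the SR reads in BMM-, pOC- and mOC-ABs. Over all protein-coding genes they took 5.80%, 4.94% and 4.39%. The hnRNP genes were nearer to that level, at 8.29% (8.01 to 8.59), 5.30% (5.06 to 5.56) and 5.11% (4.88 to 5.35). Per length, as shares of FPKM, the hnRNP genes were farther from it, at 14.0%, 9.94% and 10.8%, against 16.5%, 13.7% and 15.8% for SR genes and 8.04%, 6.83% and 6.44% for all protein-coding genes. On both scales SR genes thus carried a larger retained_intron share than all protein-coding genes in each of the 3 libraries. The shares rest on how the authors' estimation divided reads among overlapping transcripts, and that division carries an error that the intervals do not hold.

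**Figure D3:**
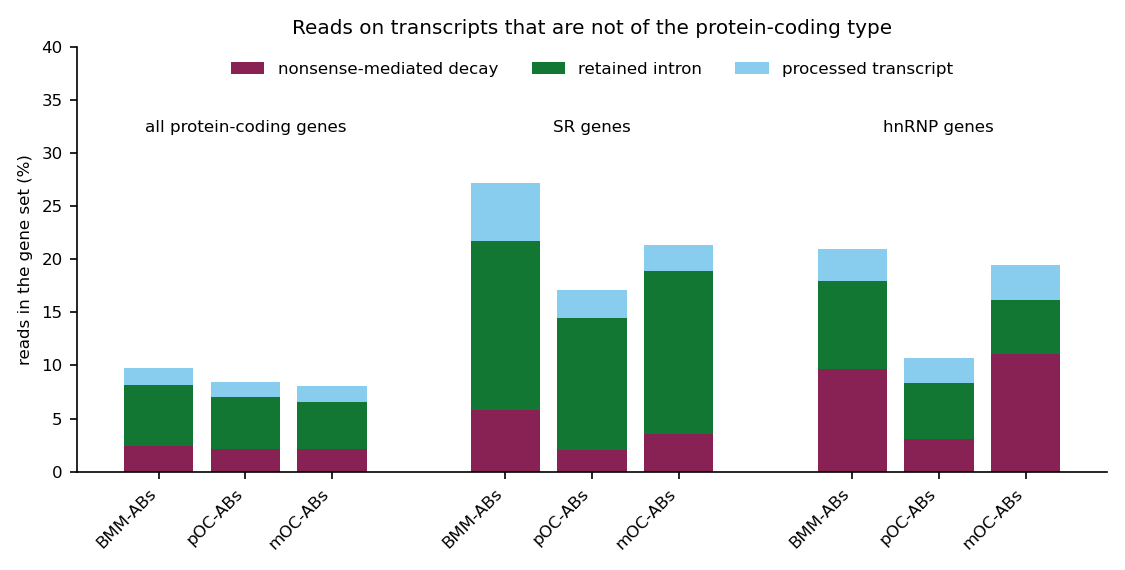
Percent of the reads of all protein-coding genes, the SR genes and the hnRNP genes that were on nonsense_mediated_decay, retained_intron and processed_transcript transcripts (stacked bars from 0), with 1 bar per library. The rest of each bar up to 100% is reads on protein_coding transcripts, which made up 72.8% to 82.9% in SR genes, 79.1% to 89.3% in hnRNP genes and 90.2% to 91.9% in all protein-coding genes.

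On nonsense_mediated_decay transcripts lay 5.77% (5.32 to 6.26), 2.01% (1.73 to 2.34) and 3.57% (3.20 to 3.98) of the SR reads in BMM-, pOC- and mOC-ABs. For the hnRNP genes it was 9.70%, 3.07% (2.88 to 3.26) and 11.1% (10.8 to 11.5). All protein-coding genes had 2.38%, 2.09% and 2.18%. In pOC-ABs the SR share of reads was no higher than that of all genes. Per length, as shares of FPKM, it was above it, at 3.66% against 2.63%. In both families pOC-ABs were lowest in the pooled reads. For the hnRNP genes this order came from Hnrnpu, without which the shares were 3.16% (2.97 to 3.36), 3.50% (3.28 to 3.73) and 2.61% (2.43 to 2.80). For the SR genes it came from Srsf3 and Srsf6, without which the shares were 1.87% (1.58 to 2.20), 1.64% (1.36 to 1.97) and 0.957% (0.754 to 1.21). These SR shares were below those of all protein-coding genes in each library. As a median over the 8 SR genes with such transcripts, the share was highest in pOC-ABs, at 2.32% against 1.60% in mOC-ABs, with BMM-ABs between them. Over the 1955 genes of the same kind the median was 3.95%, 3.14% and 2.99%, above that of the SR genes in each library. For the 9 hnRNP genes of this kind it was 7.81%, 10.2% and 14.4%, above that of all such genes.

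Single genes also set part of the retained_intron shares. Without Srsf4 the SR share was 16.0%, 12.4% and 10.3% (9.62 to 11.0) in BMM-, pOC- and mOC-ABs, so that mOC-ABs became lowest. Without Hnrnpl the hnRNP share was 5.49% (5.24 to 5.75), 5.00% and 4.94%, close to all protein-coding genes. As a median over the 7 SR genes with retained_intron transcripts, the share was 19.2%, 23.9% and 16.8%, against 5.84%, 4.59% and 3.77% over the 4777 genes of the same kind. For the 12 hnRNP genes of this kind the median was 4.31%, 2.79% and 2.38%, below that of all such genes in each library.

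Of the 68 retained_intron transcripts listed, 22 belonged to 7 SR genes and 46 to 13 hnRNP genes. Their sequences were compared with the exons of the protein-coding transcripts of the same gene. An intron was counted only where part of it lay outside the exons of every such coding transcript. In 6 of the SR and 18 of the hnRNP transcripts at least 1 whole intron of this kind was present. The others held none of this kind, 14 SR and 24 hnRNP transcripts with 100 bases or more outside the coding transcripts and 2 and 4 with fewer. Of these, 1 SR transcript (Srsf1-203) and 2 hnRNP transcripts (Hnrnpc-212 and Hnrnpu-207) had 0 bases outside. The 6 SR transcripts with a whole intron had 960, 720 and 392 reads, 64.0%, 70.2% and 29.8% of the SR retained_intron reads in BMM-, pOC- and mOC-ABs. Most SR retained_intron reads thus lay on transcripts with a whole intron in BMM-ABs and pOC-ABs and on transcripts without one in mOC-ABs. The mOC-AB value went with fewer reads on the transcripts with a whole intron, at 392, and with many reads on 1 other transcript. Of the 815 reads on the 14 SR transcripts with 100 bases or more outside, Srsf4-201 had 502.

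Of the 28 nonsense_mediated_decay transcripts, 10 belonged to 8 SR genes and 18 to 9 hnRNP genes. In the SR genes, 6 had their stop codon outside every coding exon, and these had 62.8%, 62.4% and 64.4% of the SR reads of this type. In the hnRNP genes, 3 transcripts had such a stop, with 14.0%, 44.2% and 8.05% of the reads. The SR share of reads with a stop of this kind was near equal in the 3 libraries, and the hnRNP share moved with Hnrnpu. Another 3 SR and 7 hnRNP transcripts ended at the same stop as a protein_coding transcript. These had 35.6%, 32.7% and 32.7% of the SR reads of this type and 14.0%, 48.3% and 11.9% of the hnRNP reads.

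The genes whose retained_intron share differed by 10 percentage points or more were counted among members with at least 100 reads in both libraries, 7 SR and 12 hnRNP genes. Between pOC-ABs and BMM-ABs 2 of the 19 were past that limit, against 15.8% of all genes with such transcripts. Between mOC-ABs and BMM-ABs there were 7 of 19, against 15.8%, and between mOC-ABs and pOC-ABs 7 of 19, against 13.2%. Higher in mOC-ABs than in both other libraries were Srsf4, Srsf11 and Hnrnpk, and lower than in both were Srsf3, Srsf5 and Hnrnpa2b1. For the nonsense_mediated_decay share, 4 of 17 members were past the limit in pOC-ABs against BMM-ABs (21.7% of all genes), 2 of 17 in mOC-ABs against BMM-ABs (20.8%) and 4 of 17 in mOC-ABs against pOC-ABs (20.9%). For the retained_intron share the counts of 7 were above the share of all genes, and for the nonsense_mediated_decay share the counts of 4 were close to it and that of 2 was below.

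**Figure D4:**
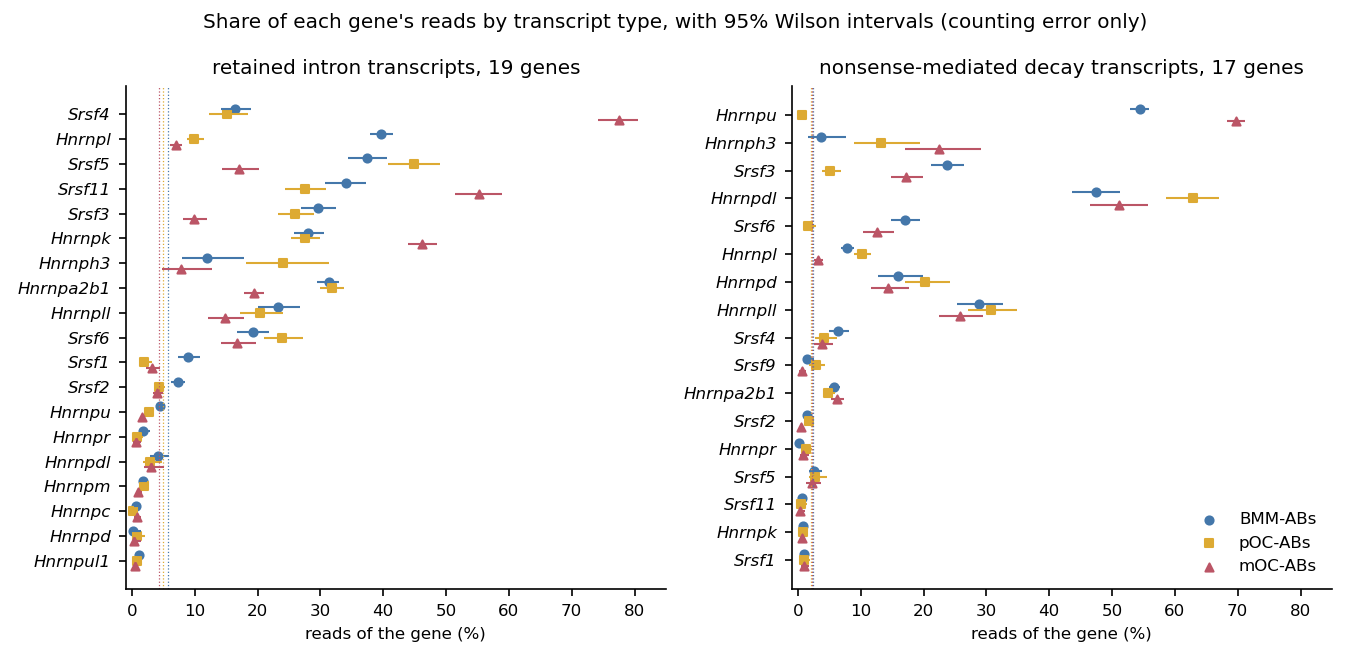
Percent of each gene's reads on retained_intron transcripts (left, 19 genes) and nonsense_mediated_decay transcripts (right, 17 genes), for genes with at least 100 reads in every library, ordered by the range over libraries, with 95% Wilson intervals and dotted lines at the share of all protein-coding genes. Srsf4 has the widest range on the left, with 77.5% in mOC-ABs, and Hnrnpu on the right, with 0.597% in pOC-ABs against 54.4% and 69.7%.

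Srsf4, an SR protein with a long arginine-serine domain, showed the widest range of the retained_intron share. Its protein_coding transcript Srsf4-202 had 731, 396 and 121 reads in BMM-, pOC- and mOC-ABs. Its retained_intron transcript Srsf4-201 had 155, 74 and 502 reads, which was 16.4% (14.2 to 18.9), 15.1% (12.2 to 18.5) and 77.5% (74.1 to 80.5) of the gene. The mOC-AB library thus stood apart, and the intervals of the other two overlapped. Per length the order of the 2 transcripts was the same, with FPKM of 35.6, 23.8 and 6.96 for Srsf4-202 and 5.49, 3.23 and 21.0 for Srsf4-201. Srsf4-201 is 3100 bases long, contains no whole intron of a coding transcript, and has 1097 bases outside the coding exons. The total of the gene in mOC-ABs was 0.31 lower than in BMM-ABs on the log2 scale, while its protein_coding RPM were 0.195 times those of BMM-ABs.

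Srsf11, an arginine-serine-rich factor that binds the splicing factor U2AF, had the same direction. Of its 812, 719 and 676 reads, 34.0% (30.8 to 37.3), 27.5% (24.4 to 30.9) and 55.2% (51.4 to 58.9) were on its 11 retained_intron transcripts. The higher value in mOC-ABs came with Srsf11-207, which had 0, 0 and 166 reads in BMM-, pOC- and mOC-ABs. Against a floor of 3 reads in the library at 0, this was at least 65.3-fold higher than in BMM-ABs and at least 53.0-fold higher than in pOC-ABs, which leaves out the counting error of the 166 reads. The lower limits of the log2 ratio with the error of both counts were 5.72 and 5.41. Only 190 of its 1670 bases lie outside coding exons. The protein_coding transcript Srsf11-202 had 465, 452 and 225 reads.

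Srsf3 and Srsf5 had the opposite direction. Srsf3-204, whose 2543 bases outside the coding exons include 2 whole introns, had 273, 209 and 67 reads in BMM-, pOC- and mOC-ABs. The retained_intron share of Srsf3 was thereby 29.6% (26.9 to 32.5), 26.0% (23.2 to 29.0) and 9.87% (8.07 to 12.0). The intervals of the first 2 libraries overlapped, and mOC-ABs were lower. Srsf5-212, which keeps the intron of 1229 bases shown above, had 220, 159 and 21 reads, a log2 ratio of -3.15 (-3.87 to -2.50) in mOC-ABs against BMM-ABs. The protein_coding transcript Srsf5-205 had 208, 183 and 387 reads. The retained_intron share of Srsf5 was 37.4% (34.4 to 40.6), 44.9% (40.7 to 49.1) and 17.1% (14.4 to 20.2), and its total was 933, 537 and 666 reads.

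**Figure D5:**
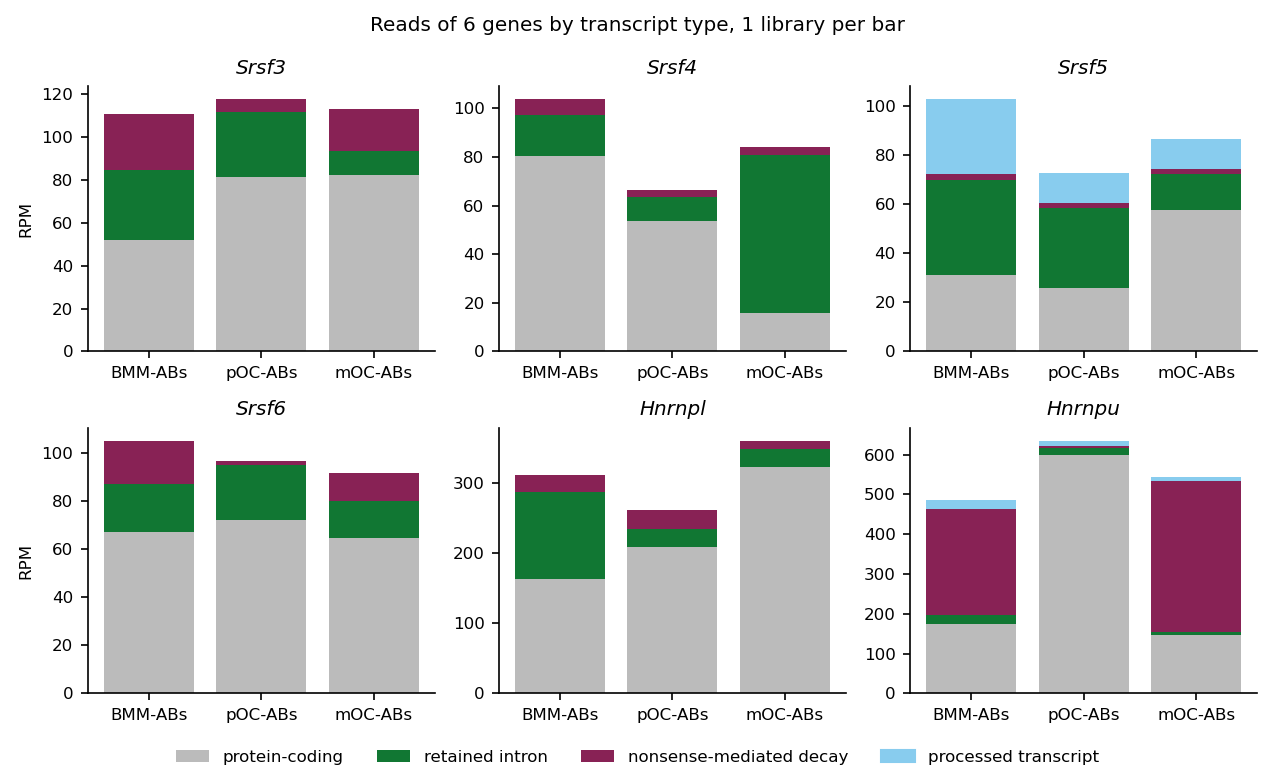
RPM of Srsf3, Srsf4, Srsf5, Srsf6, Hnrnpl and Hnrnpu, stacked by transcript type from 0, with 1 bar per library and a separate y axis per gene. Each gene's bars differ in height by less than 2-fold, while the protein_coding part of Hnrnpu holds 1593, 4428 and 1121 reads.

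The NMD transcripts of Srsf3 and Srsf6 had another order over the libraries than their retained_intron transcripts. The introns kept in Srsf3-204 and Srsf6-204 contain the exons with the stop codon. Reads on these exons could thus be assigned to either kind of transcript, and an order of the exons themselves was not measured. Srsf3-201, with the exon of 456 bases, had 239, 45 and 150 reads in BMM-, pOC- and mOC-ABs, which was 23.7% (21.2 to 26.4), 5.15% (3.87 to 6.83) and 17.2% (14.9 to 19.9) of the gene. Its log2 ratio in pOC-ABs against BMM-ABs was -2.11 (-2.60 to -1.64). The protein_coding transcript Srsf3-202 had 471, 601 and 635 reads, so that its share was lowest in BMM-ABs. Srsf6-201 had 163, 12 and 89 reads, or 17.0% (14.8 to 19.5), 1.68% (0.964 to 2.91) and 12.6% (10.4 to 15.3) of Srsf6, an SR protein also called SRp55. Both of these NMD transcripts were lowest in pOC-ABs, where their retained_intron counterparts were not, since Srsf6-204 had 184, 171 and 118 reads. After the stop codon, Srsf3-201 has 3 more splice junctions and Srsf6-201 has 4.

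In the other SR genes this type took few reads. Of Srsf2 it took 1.38%, 1.84% and 0.476%, and of Srsf1 0.958% in BMM-ABs and 0.957% in mOC-ABs, the narrowest range of the 17 genes. Srsf4 was the highest of these at 6.34%, 4.08% and 3.86%. Srsf7 and Srsf10 were listed with no transcript of this type.

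Hnrnpl, which binds CA repeats, had the widest range of the retained_intron share among the hnRNP genes. Hnrnpl-212 had 874, 141 and 31 reads in BMM-, pOC- and mOC-ABs, a log2 ratio of -4.58 (-5.14 to -4.06) between mOC-ABs and BMM-ABs. Of its 2426 bases, 1584 lie outside coding exons, and it holds no whole intron of the kind counted above. The protein_coding transcript Hnrnpl-209 had 1170, 1102 and 2249 reads. The retained_intron share was 39.7% (37.9 to 41.5), 9.96% (8.71 to 11.4) and 7.02% (6.13 to 8.03), so that BMM-ABs stood apart. Hnrnpl-213, which includes the exon of 70 bases shown above, had 222, 198 and 90 reads, or 7.81%, 10.2% and 3.24% of the gene.

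Hnrnpu showed the widest range of any transcript share. Hnrnpu-206, a nonsense_mediated_decay transcript, had 2396, 13 and 2901 reads in BMM-, pOC- and mOC-ABs, which was 54.1%, 0.277% and 69.4% of the gene. The protein_coding transcript Hnrnpu-201 had 1593, 4428 and 1121 reads, or 36.0%, 94.5% and 26.8%. The 2 transcripts thus changed places in pOC-ABs, while the gene total in reads differed by at most 0.38 on the log2 scale between any 2 libraries and was highest in pOC-ABs. FPKM scales the same assigned reads by length and library, so it is no separate measure of the swap. It was 92.6, 0.619 and 132 for Hnrnpu-206 and 22.9, 78.5 and 19.0 for Hnrnpu-201. As FPKM summed over transcripts the gene was at 159, 114 and 172 and thus lowest in pOC-ABs, so that the direction of the total depended on the scale.

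The structures of these 2 transcripts differ at their 3′ ends. Hnrnpu-201 ends in an exon of 5065 bases at chr1:178324343-178329407 (minus strand). Hnrnpu-206 leaves out all of that exon but a stretch of 71 bases at chr1:178325243-178325313, where its reading frame ends in TAA, and goes on through 3 exons downstream of Hnrnpu-201 of 51, 94 and 122 bases. These 267 bases of the 2844 in Hnrnpu-206 are the ones that lie outside coding exons. The other 2 NMD transcripts of Hnrnpu, Hnrnpu-208 and Hnrnpu-209, had 8, 8 and 6 reads and 4, 7 and 7 reads.

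In Hnrnpdl and Hnrnpll the NMD transcripts were a large part of the reads in every library. Hnrnpdl, a relative of Hnrnpd, had 47.4% (43.7 to 51.2), 62.9% (58.6 to 67.0) and 51.1% (46.5 to 55.7) of its reads on this type, with Hnrnpdl-201 alone at 246, 263 and 179 reads. Hnrnpll-203, with the exon of 83 bases shown above, had 171, 169 and 154 reads, or 28.8%, 30.8% and 25.8% of Hnrnpll, a factor known for the splicing of Ptprc in lymphocytes. The 3 intervals of Hnrnpll overlapped, and Hnrnpdl was highest in pOC-ABs. Hnrnph3 had 6, 21 and 40 reads on Hnrnph3-204, or 3.61% (1.67 to 7.66), 13.3% (8.86 to 19.5) and 22.5% (17.0 to 29.1) of a gene with 158 to 178 reads per library. Hnrnpdl-201 and Hnrnph3-204 end at the same stop as a protein_coding transcript of their gene, whereas the stop of Hnrnpll-203 lies outside coding exons.

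The retained_intron transcript with the most reads of all members was Hnrnpa2b1-213, with 625, 529 and 347 reads in BMM-, pOC- and mOC-ABs. It holds 2743 bases outside coding exons. Hnrnpa2b1, known for its part in packing RNAs into vesicles, had 31.3% (29.5 to 33.0), 31.8% (29.9 to 33.8) and 19.4% (17.8 to 21.0) of its reads on this type. In Hnrnpk, which binds runs of C, the share was 28.1% (25.8 to 30.5), 27.6% (25.4 to 30.0) and 46.2% (43.9 to 48.6), over 13 transcripts. Hnrnpk-215 had the most reads over the libraries, with 216, 158 and 193, and 33 of its 522 bases lie outside coding exons. The higher share in mOC-ABs came with Hnrnpk-211 at 65, 92 and 289 reads and Hnrnpk-206 at 49, 91 and 241.

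Some members also differed in their protein_coding transcripts. Hnrnpr-202 had 106, 512 and 544 reads in BMM-, pOC- and mOC-ABs, while Hnrnpr-204, which is shorter by its annotation, had 482, 92 and 116. Hnrnpr, a relative of Syncrip, had a total of 928, 809 and 843 reads, so that its gene total moved little. Hnrnpul1-205 had 2429, 334 and 2156 reads and Hnrnpul1-201 had 2714, 2999 and 1798. Over all types, 17 of 53 SR transcripts with at least 20 reads were past 2-fold between pOC-ABs and BMM-ABs, 22 between mOC-ABs and BMM-ABs and 24 between mOC-ABs and pOC-ABs. Of 135 hnRNP transcripts, 46, 46 and 38 were past it. Among all 32767 transcripts of protein-coding genes with as many reads, 37.1%, 39.1% and 36.7% were past it, so that a difference of this size in a transcript was common in these libraries.

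Hnrnph1 had few reads on protein_coding transcripts for its total, at 40, 395 and 164 in BMM-, pOC- and mOC-ABs out of 792, 992 and 1128. The rest lay on processed_transcript transcripts, of which Hnrnph1-211 had 271, 178 and 402 reads and Hnrnph1-204 had 206, 0 and 0. A total over protein_coding transcripts alone would put Hnrnph1 12.2-fold higher in pOC-ABs than in BMM-ABs, while the total of all its reads differed by a log2 ratio of 0.63. Counted on protein_coding transcripts alone, 2 of 30 members were past 2-fold between pOC-ABs and BMM-ABs (Hnrnph1 and Hnrnpu), against 13.9% of all genes counted in this way. Between mOC-ABs and BMM-ABs there were 3 (Hnrnpa3, Hnrnph1 and Srsf4) against 15.5%, and between mOC-ABs and pOC-ABs 4 (Hnrnph1, Hnrnpu, Srsf4 and Srsf5) against 13.2%. These counts were near or below the share of all genes.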

How the data were processed

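RNA of ABs was measured in 3 libraries, 1 for each stage (BMM-ABs, pOC-ABs, mOC-ABs). The labels name the cells, and the description of the series and the study's methods name ABs. Libraries were made from RNA purified on poly-T beads, which favours polyadenylated RNA. The submitters' processing notes name FastQC, HISAT2, StringTie and GRCm38, without roles or versions. The authors deposited, for each mRNA and lncRNA transcript, a read count and an FPKM, and for each circRNA the count of junction reads and SRPBM, a score scaled per library. The columns marked 0h, 24h and 72h were matched to the samples through the RANKL times in the labels. The deposited counts were used, and FPKM served for comparisons per length. SRPBM was not used beyond its check.

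Transcripts were joined to GENCODE M21, in which 211 of 56651 were not found. Counts were summed per gene and per transcript type and divided by the library's total of the mRNA table. Ratios have Clopper-Pearson intervals and shares have Wilson intervals (confidence level 95%), from Python 3.11.15 with numpy 2.4.6, pandas 2.3.3 and scipy 1.17.1, and figures were drawn with matplotlib 3.10.9. The calculation was checked on simulated counts. The smallest library had 7387317 mRNA reads. With 1 library per stage no test was made, and sizes were counted instead, a 2-fold limit over at least 20 reads and 10 percentage points over at least 100 reads in both libraries.

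Named with full values were the 3 members of each family with the most reads, members past 2-fold, the 5 with the widest range of each type share, and the 5 transcripts of each type with the most reads or the widest share of their gene. The genes Hnrnph1, Hnrnpc and Elavl1, the totals of Srsf4 and Srsf5, and the other transcripts were added after their values were seen. The members and lists were chosen with earlier results of these data known. The alternatives were other scalings, FPKM, other limits and other denominators, and the background over genes with at least 500 reads was added after seeing the data.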

Additional observations from a re-analysis of the deposited data

How the results depend on the processing

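No paired analysis was possible because each stage has 1 library and the labels give no replicate numbers, and for the same reason no library could be left out. Of 150 alternative values, 85 stayed within the limits set for them and 65 moved. Of the medians of gene totals, 4 changed sign. Scaled to the mRNA and lncRNA tables together, the SR median became -0.10 in pOC-ABs against BMM-ABs and 0.04 in mOC-ABs against pOC-ABs and the hnRNP median -0.07 in the former, and with summed FPKM the SR median became 0.07 in the latter. The cause of the moves was not tested beyond what each alternative changes by construction. In the order pOC-ABs against BMM-ABs, mOC-ABs against BMM-ABs and mOC-ABs against pOC-ABs, no gene total was past 2-fold, but with summed FPKM 1 was in the second (Hnrnph1) and 1 in the last (Srsf1), with protein_coding transcripts alone 2, 3 and 4, and at 1.5-fold 8 in the first and 3 in the second. Of all genes, 13.1% and 9.83% were past 2-fold by summed FPKM in the last 2 comparisons, and 27.4% and 28.3% past 1.5-fold in the first 2. The same scaling to both tables moved the median of all genes to -0.24, -0.19 and 0.05 and that of the hnRNP genes to 0.14 in the last comparison.

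For BMM-, pOC- and mOC-ABs in this order, the median over all genes of a family, those without such transcripts included, gave retained_intron shares of 12.7%, 9.72% and 6.95% for SR and 1.07%, 0.839% and 0.593% for hnRNP genes. The median nonsense_mediated_decay shares were 1.40%, 1.76% and 0.771% for SR, where pOC-ABs became highest, and 0, 0 and 0% for hnRNP genes. With FPKM in place of reads, the hnRNP retained_intron shares were 14.0%, 9.94% and 10.8% and the SR share in pOC-ABs 13.7%. The nonsense_mediated_decay shares by FPKM were 7.65%, 3.66% and 4.73% for SR and 9.14%, 4.27% and 9.67% for hnRNP genes. For all protein-coding genes they were 2.80%, 2.63% and 2.65%. With only the 3 named types in the denominator, the SR retained_intron share in BMM-ABs was 17.0% and the hnRNP nonsense_mediated_decay share in mOC-ABs 11.5%.

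At a limit of 20 points, 1, 4 and 3 members were apart in the retained_intron share and 1, 0 and 1 in the nonsense_mediated_decay share, against 6.28%, 6.31% and 5.08% and at most 10.4% of all genes. With at least 500 reads in both libraries, the retained_intron count was 1 in the first comparison and the nonsense_mediated_decay count 1 in the second, against 9.85% and 15.3% of all genes. Of the 63, 68 and 62 member transcripts past 2-fold, 32, 39 and 32 had at least 100 reads, and 35, 31 and 27 of 188 were past 4-fold, against 28.8%, 29.6% and 27.7% and 17.2%, 19.1% and 18.1% of all transcripts. The member transcripts with at least 100 reads were 114. Depth limits Hnrnpa3 and Hnrnph3 most, and division of reads among overlapping transcripts adds an error that these files do not give.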

Other observations

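The other tables of the series also held RNAs at the member genes. In the lncRNA table, which gives no strand, 51 lncRNAs overlapped 24 of the 30 genes. NONMMUT020780.2 at Hnrnpc had 595, 666 and 655 reads in BMM-, pOC- and mOC-ABs. At Hnrnpa3, NONMMUT038021.2 had 96, 69 and 250 reads against 44, 23 and 21 on the Hnrnpa3 transcripts. NONMMUT102540.1, which overlaps Srsf7, had 385, 279 and 253 reads against 301, 380 and 319 on the Srsf7 transcript, and the division of reads between the tables was not tested. NONMMUT003966.2 at Hnrnpu had 153, 9 and 159 reads and was, like Hnrnpu-206, lowest in pOC-ABs. It spans chr1:178327980-178329930, which includes the start of the last exon of Hnrnpu-201 and no exon that Hnrnpu-206 alone has. Reads divided among overlapping RNAs of the 2 tables were not tested as a source of this.

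In the circRNA table, which counts reads across back-splice junctions, 5 members were host genes, with few reads each. The circRNA of Hnrnpu had 6, 2 and 4 junction reads, that of Hnrnpll 0, 6 and 3, that of Hnrnph3 3, 0 and 3, that of Hnrnpr 0, 3 and 0 and that of Srsf4 0, 0 and 2. The Hnrnpu circRNA at chr1:178323134-178325313 ends at the same base as the 71-base exon of Hnrnpu-206.

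Singled out after their values were seen, 7 of 114 member transcripts with at least 100 reads were over 4-fold lower in pOC-ABs than in both other libraries, which is 6.14% against 3.73% of the 17750 transcripts of protein-coding genes with as many reads. They were Hnrnpf-202, Hnrnpl-203, Hnrnpu-206, Hnrnpul1-202, Hnrnpul1-205, Srsf1-202 and Srsf6-201. Srsf1-202 had 81, 0 and 265 reads and Hnrnpf-202 had 182, 0 and 269. In the same way 3 were lower in mOC-ABs (2.63% against 4.28%) and 4 in BMM-ABs (3.51% against 2.58%).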
